A study of Arabidopsis thaliana with 3 samples.

Results

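The WUSCHEL-related homeobox (WOX) genes of Arabidopsis thaliana encode plant homeodomain transcription factors that maintain stem cells and drive the outgrowth of organs. The 10 genes described here, WUS, WOX1, WOX2, PRS (also WOX3), WOX4, WOX5, STIP (also WOX9), WOX12, WOX13 and WOX14, were taken by locus identifier as members of the gene family, with no threshold on their values, although earlier results of these data were known. Of these 10, 7 have a row among the 19777 genes of the authors' comparison, and WOX2, WOX5 and WOX14 were not analysed here. RNA came from inflorescence meristems together with flower buds of 3 independent transgenic lines, with 1 poly(A) library per line. All lines were sep1 sep2 sep3 triple mutants that expressed SEP3Δtet, equated in the series title with the splice variant SEP3.3, and they were compared with the triple mutant alone, so both sides of the comparison are mutated in those 3 SEPALLATA genes. Plants grew in long days, and by the sample labels buds of line 1 reached stages 10 to 11, those of line 2 reached 10 to 12 and those of line 3 reached 10 to 13. The sources used here do not give the promoter of the transgene, the age of the plants or the number of plants per library.

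WUS marks the organising centre below the stem cells of shoot and floral meristems. CLAVATA signalling restricts it there, and in a wild-type flower AGAMOUS, acting with SEPALLATA proteins, shuts it off once carpels form, which ends the supply of stem cells. WUS is also active in anthers and in the nucellus of the ovule. WOX1 and PRS promote lateral growth of leaf blades and floral organs from their margins, WOX4 maintains the vascular cambium, STIP promotes growth of the shoot apex and embryo, WOX12 acts in the founding of new root primordia, and WOX13 acts in the replum of the fruit and in lateral roots. Of the members not analysed, WOX2 acts in the early embryo, WOX5 in the quiescent centre of the root and WOX14 in the vascular tissue. SEP3Δtet takes its name from the loss of tetramer formation by the SEP3 protein, and earlier work on these lines asked whether such tetramers are needed for floral meristem determinacy. The question put to the present values is which of these homeobox genes differ in RNA level when the variant is expressed.

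The 7 genes fall into 3 clades that differ in coding sequence, and the stretches below show where. Most genes of the WUS clade encode a short motif after the homeodomain, the WUS box, which recruits TOPLESS corepressors. It was searched in the longest translated coding sequence of each gene as threonine, leucine, any residue, leucine, phenylalanine and proline, and was found in WUS, WOX1, PRS and WOX4 and not in STIP, WOX12 or WOX13. The coding strand is printed 5′ to 3′ from RefSeq's TAIR10.1 assembly, with the 6 codons of the box in capitals and 6 bases on each side in lower case.
WUS (chr2:7809196-7809225, minus strand): cgacgtACGCTTCCTCTCTTCCCTatgcac
WOX1 (chr3:6161242-6161271, minus strand): gaacagACACTTGAGCTGTTTCCActgaga
PRS (chr2:12263221-12263250, plus strand): ttgaaaACCCTGGAACTTTTCCCAatctca
WOX4 (chr1:17236918-17236947, minus strand): aatgtaACCCTCGAGCTTTTTCCTctccat
In the 18 bases of the box, WOX1, PRS and WOX4 each differed from WUS at 7 bases and at 1 residue, the variable position of the motif. The search pattern left only that residue free to differ.

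A stretch of 8 residues in the DNA-contacting helix of the homeodomain was located by a pattern in all 7 genes. The pattern was asparagine, valine, any 2 residues, tryptophan, phenylalanine, glutamine and asparagine. By the search itself, only those 2 open residues could differ between genes. The 24 bases that encode the 8 residues are printed on the coding strand from the same assembly, with capitals at the bases that differ from WUS.
WUS (chr2:7810402-7810425, minus strand): aacgtcttttactggttccagaac
WOX1 (chr3:6162700-6162723, minus strand): aacgtTttCtaTtggttccaAaac
PRS (chr2:12262268-12262291, plus strand): aacgtcttttactggttccagaac
WOX4 (chr1:17237312-17237335, minus strand): aaTgtGttCtaTtggttccagaac
STIP (chr2:14343195-14343218, minus strand): aacgtcttCtactggttccaAaac
WOX12 (chr5:5882387-5882410, minus strand): aacgtcttCtactggttTcaAaac
WOX13 (chr4:16876294-16876317, minus strand): aaTgtctAtAactggttccagaac
PRS is identical to WUS over these bases. The differences in WOX1, WOX4, STIP and WOX12, at 2 to 4 bases, leave the 2 open residues as in WUS. In WOX13 the 3 differences change both open residues.

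WUS rose and WOX1 fell in the SEP3Δtet lines, and both measured genes of the intermediate clade, STIP and WOX12, rose. The authors' deposited table called 3 of the 7 genes higher and 1 lower at an adjusted p under 0.05 by edgeR, against 11.6% of all genes higher and 5.88% lower. Among the 8957 genes within the abundance range of the 7 (average log2 CPM, counts scaled to library size, of 1.65 to 4.93), the authors' deposited table called 12.6% higher and 4.34% lower. The remaining 3 genes, PRS, WOX4 and WOX13, did not pass the test. The table gives 1 fold change per gene and no value per library, so the level in each line and the spread between lines are not shown, and with RNA of whole inflorescences fewer cells of a type and less RNA per cell cannot be told apart. Each p rests on the libraries of the fit, 3 of them from the independent lines and an unknown number from the triple mutant. The sample labels cover the 3 lines only, so bud stages and batch of the triple mutant are not known here. Whether the genotypes also differed in bud stage or batch could not be tested.

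**Figure D1:**
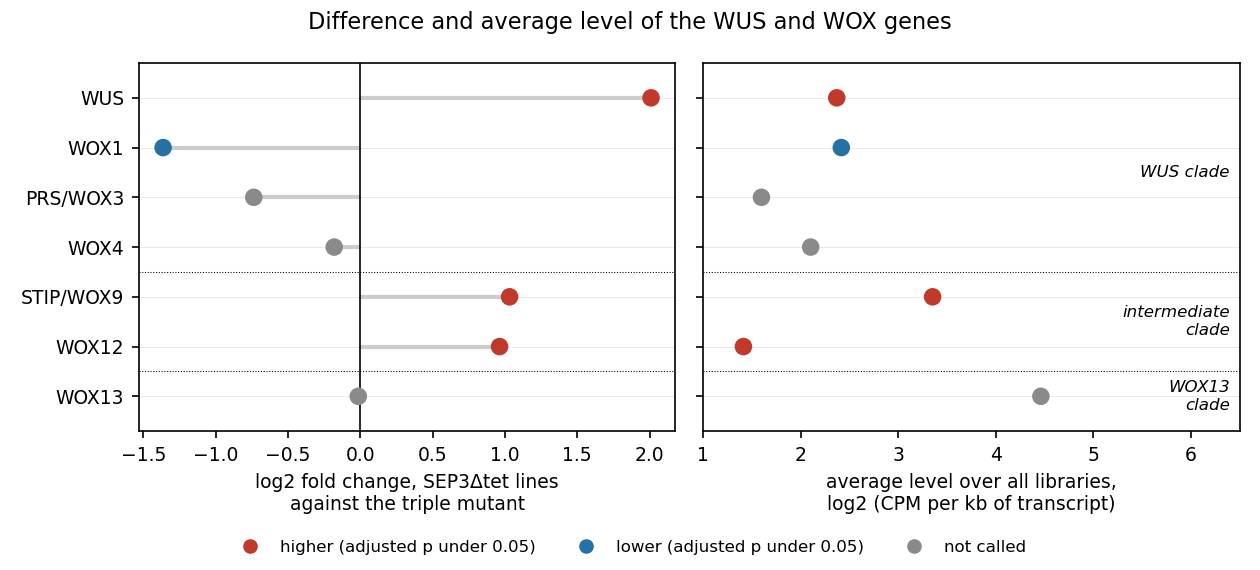
Left, log2 fold change of the 7 measured genes in the SEP3Δtet lines against the triple mutant, 1 deposited value per gene and no error bar because the table gives none. Right, average level of each gene in log2 CPM per kb of transcript. WUS lies at 2.01 and WOX1 at -1.36 on the left, and WOX13 has the highest level of the 7 on the right.

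WUS (AT2G17950, chromosome 2, 7808871 to 7810811, minus strand of TAIR10.1) was 4.03-fold higher in the SEP3Δtet lines in the authors' deposited table, a log2 fold change of 2.01 with F = 55.7 and edgeR's adjusted p = 2.5e-04. That is the largest change of either sign among the 7 genes. Its log2 fold change lay at percentile 93.8 of all genes and at percentile 90.8 of the 500 genes nearest in abundance. Most genes as low as WUS thus had lower values, though some rose as much or more. WUS averaged 2.69 log2 CPM in the authors' deposited table, at percentile 23.8 of the genes measured. A spread can be read from F as the size of the log2 fold change divided by the square root of F. It only approximates the error of the fold change in the authors' fit, and it is not a spread measured between libraries. For WUS this spread was 0.27 on the log2 scale, at percentile 82.0 of genes of like abundance.

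WOX1 (AT3G18010, chromosome 3, 6160733 to 6163453, minus strand) moved the other way. Its RNA was 2.57-fold lower in the SEP3Δtet lines in the authors' deposited table, a log2 fold change of -1.36 with F = 63.8 and edgeR's adjusted p = 1.5e-04. Decreases of this size were rare: WOX1 lay at percentile 0.258 of all genes by fold change. It is 1 of 74 genes, 0.374% of those tested, that were both called lower and at least 2-fold lower in the authors' deposited table. The spread implied by F was 0.17, near the middle of genes of like abundance at percentile 49.2.

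PRS (AT2G28610, chromosome 2, 12262013 to 12263595, plus strand), which acts redundantly with WOX1 in blade outgrowth, had a log2 fold change of -0.74 in the authors' deposited table and did not pass the test (F = 9.18, p = 0.0106, edgeR's adjusted p = 0.057). It lay at percentile 1.54 of all genes by fold change, and at percentile 2.80 of the 500 genes nearest in abundance. Its average abundance of 1.80 log2 CPM was among the lowest of the 7 in the authors' deposited table. A difference between WOX1 and PRS was not tested, since no values per library were used.

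WOX4 (AT1G46480, chromosome 1, 17236524 to 17238185, minus strand), the cambium gene and the remaining measured member of the WUS clade, stood at -0.18 in the authors' deposited table (F = 0.598, edgeR's adjusted p = 0.667). The 4 measured WUS-clade members thus include 1 gene that rose, 1 that fell and 2 that were not called, and the WUS box is present in all 4.

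STIP (AT2G33880, chromosome 2, 14341355 to 14343796, minus strand) was 2.05-fold higher in the SEP3Δtet lines in the authors' deposited table, a log2 fold change of 1.03 with F = 18.0 and edgeR's adjusted p = 0.0142. By size of at least 2-fold, WUS and STIP were among the 7.9% of genes called higher. STIP lay at percentile 96.0 by fold change among the 500 genes nearest in abundance. Its spread implied by F, 0.24, was wide for its abundance, at percentile 95.6. The F and p of STIP in the authors' deposited table correspond to 10.5 denominator degrees of freedom, whereas those of WUS, WOX1, PRS, WOX4 and WOX12 correspond to 11.9.

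WOX12 (AT5G17810, chromosome 5, 5880424 to 5884770, minus strand) was 1.95-fold higher in the authors' deposited table, a log2 fold change of 0.96 with F = 14.2 and edgeR's adjusted p = 0.0214. It was the least abundant of the 7, at an average of 1.65 log2 CPM in the authors' deposited table. Among the 500 genes nearest in abundance it lay at percentile 77.6 by fold change, so a fold change like that of WOX12 was ordinary for genes so low. A neighbouring gene, AT5G17800 (a myb domain gene, MYB56), lies on the opposite strand with 1092 bases between them and rose by a like amount in the authors' deposited table, by 0.92 on the log2 scale (edgeR's adjusted p = 0.0015). Whether the 2 genes share reads was not tested, and the sources used here do not say whether counting used strand.

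WOX13 (AT4G35550, chromosome 4, 16875521 to 16877451, minus strand) showed a log2 fold change of -0.01 in the authors' deposited table (F = 0.0175, edgeR's adjusted p = 0.954). The sign of so small a value depends on the centring, being 0.03 after recentring on abundant genes. The annotated end of WOX13 overlaps that of AT4G35540 on the opposite strand by 78 bases, so reads there are uncertain without strand. AT4G35540 stood at 0.16 in the authors' deposited table (edgeR's adjusted p = 0.552).

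**Figure D2:**
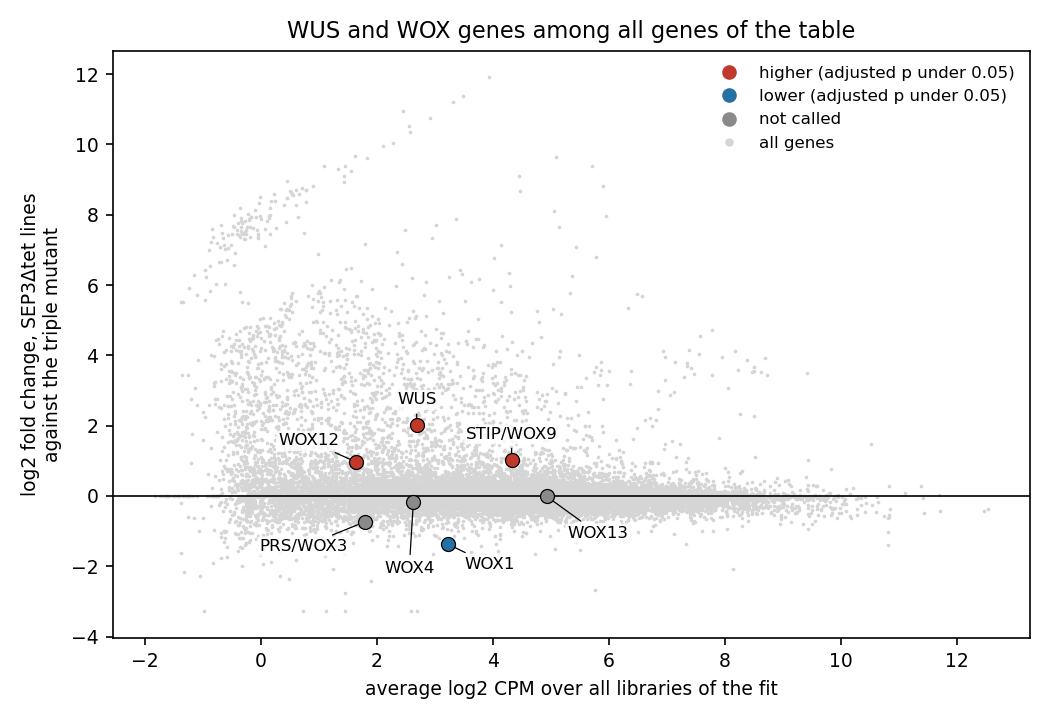
Plot of log2 fold change in the SEP3Δtet lines against the triple mutant (vertical axis) by average log2 CPM (horizontal axis), for all 19777 genes in grey and the 7 measured WUS and WOX genes as outlined points. WUS lies among the higher values at its abundance, while WOX1, at -1.36, lies at the lower edge.

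On a per-length scale, average levels over all libraries spanned about 3 log2 units. Dividing CPM by the length of the longest annotated transcript gave 4.46 log2 CPM per kb for WOX13 and 3.35 for STIP from the averages in the authors' deposited table. WOX1 (2.42), WUS (2.37) and WOX4 (2.10) formed the middle on the log2 CPM per kb scale, and PRS (1.60) and WOX12 (1.41) the low end, from the same averages in the authors' deposited table. These averages mix both genotypes and have no error, so neighbours in this order are not shown to differ. Of the 5 family genes outside the set, WOX6 was measured, and it too belongs to the WUS clade and has the WUS box. Its log2 fold change was 1.11 at an average of 0.01 log2 CPM in the authors' deposited table (edgeR's adjusted p = 0.205). Expression of WOX7, WOX8, WOX10 and WOX11 was not analysed here. In WOX7, also of the WUS clade, the search found no WUS box.

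The gene of the transgene and the neighbours of WUS and WOX1 give context for these values. SEP3 was 4.82-fold higher in the SEP3Δtet lines in the authors' deposited table (edgeR's adjusted p = 1.1e-04), which fits the reading of positive values as higher in those lines. Next to WUS, AT2G17940 lies 4911 bases away and had a log2 fold change of 5.91 in the authors' deposited table (edgeR's adjusted p = 0.0152) at an average of only -1.23 log2 CPM. Next to WOX1, AT3G18020 (a pentatricopeptide repeat gene) was not called, at 0.11 in the authors' deposited table (edgeR's adjusted p = 0.853). Neighbours of other members, AT2G28605 beside PRS, AT1G46552 beside WOX4, AT2G33980 beside STIP, AT3G11250 and AT3G11270 beside WOX5 and AT1G20696 beside WOX14, were not called, with log2 fold changes from -0.15 to 0.28 in the authors' deposited table.

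Genes that act around WUS and the WOX genes were described by lists of 63 genes, of which 57 were measured. Of the 57, the authors' deposited table called 6 higher (10.5%, against 11.6% of all genes) and 14 lower (24.6%, against 5.88%). The median log2 fold change of the 57 was -0.13, against -9.4e-04 for all genes. No share among genes of like abundance was computed for these lists, so their shares are not matched for abundance.

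Of 8 measured genes of the stem cell feedback that restricts WUS, the authors' deposited table called 5 lower (62.5%, against 5.88% of all genes). It left 3 uncalled. The median of the list was -0.32 on the log2 scale, and its lowest value, -0.66, fell short of 2-fold. CLV1, the receptor kinase of the CLV3 peptide, fell by 0.66 on the log2 scale in the authors' deposited table (edgeR's adjusted p = 0.0023). CRN, a membrane-bound partner of CLV2, had a log2 fold change of -0.51 (edgeR's adjusted p = 0.0084) in the authors' deposited table. BAM2 (-0.46) and BAM3 (-0.32), receptor kinases related to CLV1, also fell there, as did the receptor kinase gene ER (-0.32, edgeR's adjusted p = 0.047) in the authors' deposited table. For ER the call was lost after recentring on abundant genes (adjusted p = 0.084) and when edgeR's p-values were adjusted over genes of 1 log2 CPM or more (0.051). CLV2 (-0.17) and BAM1 (-0.20) were not called in the authors' deposited table, and CLV3, the ligand gene that WUS activates, was not analysed here.

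Among 9 genes for WUS partners and corepressors, 1 was called lower in the authors' deposited table, a share of 11.1% against 5.88% of all genes. It was HAM1, which encodes a GRAS protein that binds WUS, with a log2 fold change of -0.57 in the authors' deposited table (edgeR's adjusted p = 7.1e-04). Its relatives HAM2 (-0.18) and HAM3 (-0.23) were not called in the authors' deposited table. The corepressor genes TPL and TPR1 to TPR4, whose products bind the WUS box, were not called either; TPL stood at -0.41 in the authors' deposited table (p = 0.031 unadjusted, edgeR's adjusted p = 0.122).

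Floral regulators of WUS were mostly not called: of 10 measured, 7 did not pass the test in the authors' deposited table. The 2 that were higher make 20.0%, against 11.6% of all genes, and the 1 that was lower makes 10.0%, against 5.88%. LFY, which activates AG in young flowers together with WUS, fell (log2 fold change -0.73, edgeR's adjusted p = 0.0037) in the authors' deposited table. SUP, which limits the number of stamens, rose by 1.36 (edgeR's adjusted p = 0.048) and SQN, a cyclophilin gene needed for floral determinacy, by 0.42 (edgeR's adjusted p = 0.0201) in the authors' deposited table. SUP, at an average of 0.63 log2 CPM there, falls outside a filter at 1 log2 CPM. Neither AG nor KNU was called: AG, which ends WUS activity in the flower, stood at 0.16 (edgeR's adjusted p = 0.440), and KNU, its target and a direct repressor of WUS, at 0.98 (adjusted p = 0.184) with an average of 0.92 log2 CPM in the authors' deposited table.

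None of the 8 cytokinin response genes was called by edgeR's test in the authors' deposited table, where 11.6% of all genes were higher and 5.88% lower. An unadjusted p under 0.05 was found for 1 of the 8, against 5870 of all 19777 genes. The receptor gene AHK4 (-0.0025) and the response regulator gene ARR1 (-0.06) stood near 0 in the authors' deposited table.

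The small list of STM, the HEC genes and SPL/NZZ held larger changes. Of its 5 genes, 3 were higher in the authors' deposited table (60.0%, against 11.6% of all genes). HEC2 (log2 fold change 2.74, edgeR's adjusted p = 0.0021) and HEC3 (2.15, adjusted p = 3.8e-04), bHLH genes of carpel tissue and of the meristem, rose in the authors' deposited table. SPL/NZZ, needed for sporocytes in anthers and ovules and activated by AG, rose by 2.69 (edgeR's adjusted p = 3.2e-07) in the authors' deposited table. STM, which keeps meristem cells undifferentiated in parallel with WUS, was not called at -0.16 (edgeR's adjusted p = 0.292), nor was HEC1 at 0.97 in the authors' deposited table (adjusted p = 0.348).

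Of 8 genes of blade and margin outgrowth, the setting of WOX1 and PRS, 5 were lower in the authors' deposited table (62.5%, against 5.88% of all genes). The median of the list was -0.44 on the log2 scale, and its lowest value, -0.71, fell short of 2-fold. YAB3 (-0.71, edgeR's adjusted p = 4.8e-04) and FIL (-0.63, adjusted p = 1.7e-04), YABBY genes of the abaxial side of lateral organs, fell in the authors' deposited table. MP, an auxin response factor that activates WOX1 and PRS in leaves, fell by 0.50 on the log2 scale (edgeR's adjusted p = 0.0077), KLU, a cytochrome P450 gene of organ growth, by 0.48 and ARF4, an abaxial auxin response factor, by 0.41 in the authors' deposited table. ARF2 (-0.28) and KAN1 (-0.01) were not called in the authors' deposited table.

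In the list of the vascular cambium, PXY, the receptor kinase gene upstream of WOX4, fell slightly (-0.31, edgeR's adjusted p = 0.0185) in the authors' deposited table. PXL2, a relative of PXY, rose by 0.87 (edgeR's adjusted p = 0.0250), and PXL1 (0.25) and CLE41 (-0.14), a ligand gene for PXY, were not called in the authors' deposited table. Of 8 genes of the root niche and of regeneration, 3 were measured; SCR fell (-0.42, edgeR's adjusted p = 0.037) and ACR4 (-0.34) and SHR (-0.13) were not called in the authors' deposited table. After recentring SCR was not called (edgeR-based adjusted p = 0.059).

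**Figure D3:**
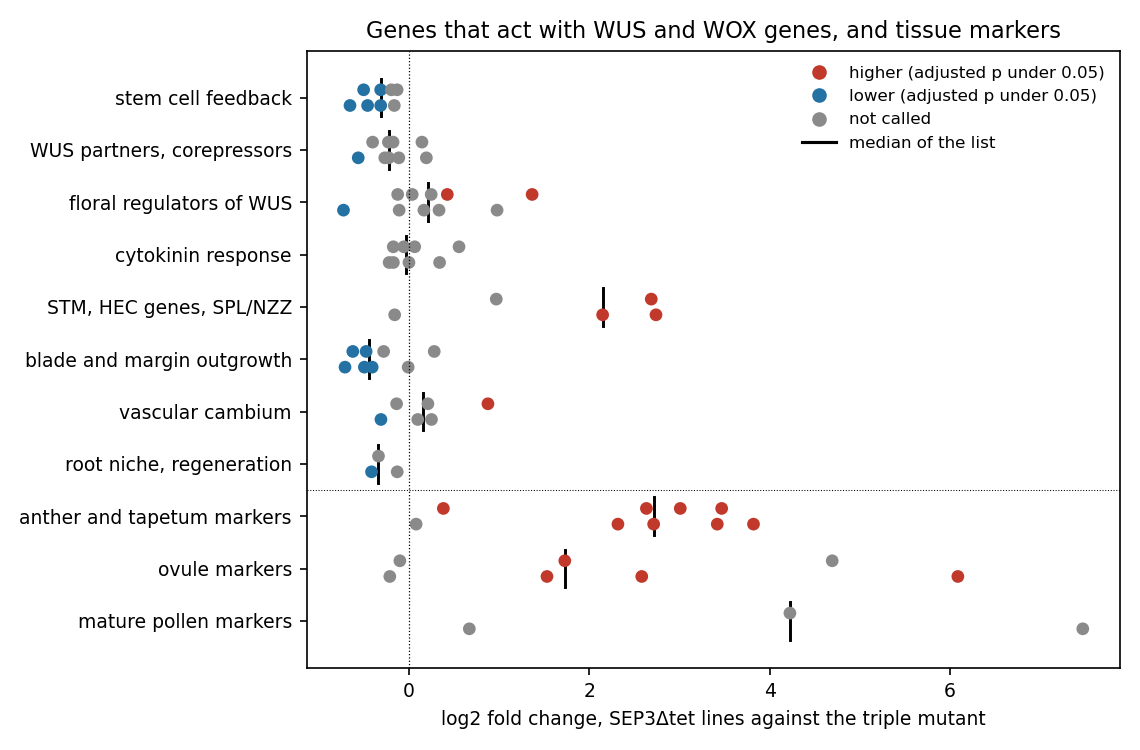
Plot of log2 fold change in the SEP3Δtet lines against the triple mutant for each measured gene of the 8 lists of genes that act with WUS and WOX genes and, below the dotted line, of 3 marker lists. Points are genes, coloured by call, and black bars are list medians, which lie at -0.32 for stem cell feedback, -0.44 for blade and margin outgrowth and 2.71 for anther and tapetum markers.

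WUS is also active in anthers and ovules, and many markers of those tissues were higher in the same comparison. Of 9 anther and tapetum markers, 8 were higher in the authors' deposited table (88.9%, against 11.6% of all genes), with log2 fold changes over all 9 from 0.08 to 3.82 and a median of 2.71. The 1 not called was TPD1, a signal for tapetum identity, at 0.08 in the authors' deposited table. Of 7 measured ovule markers, 4 were higher in the authors' deposited table (57.1%, against 11.6% of all genes), and the list ranged from -0.21 to 6.09 with a median of 1.73. ANT (-0.10), BEL1 (-0.21) and INO (4.69) were not called in the authors' deposited table. None of 3 measured mature pollen markers was called by edgeR's test in the authors' deposited table. An unadjusted p under 0.05 was found for 5870 of all 19777 genes and for 2 of these 3 markers. Their log2 fold changes were nevertheless all positive, at 7.48 for VGD1, 4.23 for PGA4 and 0.67 for HAP2 in the authors' deposited table, with averages of -0.66, -0.47 and 0.83 log2 CPM, so the missing calls do not show that these markers stayed level. Levels of these markers in each genotype are not in hand, and their part in the higher WUS, STIP and WOX12 values was not tested.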

How the data were processed

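The authors used STAR for alignment, featureCounts for counting and edgeR for the comparison, with the TAIR10 build, per the submitters' processing notes. The sources used here give no versions, strand setting, filter on low counts, model or number of control libraries, and depth per library is unknown. Per the file headers, the deposited table has 19777 genes, each with log2 values (fold change and average CPM, counts scaled to library size), the F score of the test, and a raw and an adjusted p-value. These are the columns that the quasi-likelihood test of edgeR writes, and the authors' adjusted p-values match the Benjamini-Hochberg method over all rows to within 1.8e-15. A positive fold change was read as more RNA in the SEP3Δtet lines, by the order of genotypes in the name of the comparison.

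Genes were called at a deposited adjusted p under 0.05. The table holds no coordinates; loci, transcript lengths and sequences came from RefSeq's TAIR10.1 by locus identifier, where 19756 identifiers of the table were found and 21 were not. Implied spread is the size of the log2 fold change over the square root of F, ranked among the 500 genes nearest in average log2 CPM. Genes named were all measured members, WOX6, the called genes of each pathway list with the first 2 not called, and neighbours of members; SEP3, TPL, TPR1 to TPR4 and single tissue markers were added after their values were seen. Members and lists were chosen with earlier results of these data known. No per-library result, including leaving out a line, was computed. The adjustment, the degrees of freedom and the recentring were tested on simulated data. Those data set F to the square of the fold change over its error, so that approximation was not itself tested. Python 3.11.15, SciPy 1.17.1, pandas 2.3.3, Biopython 1.88 and matplotlib 3.10.9 were used.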

Additional observations from a re-analysis of the deposited data

How the results depend on the processing

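Of the 7 measured WUS and WOX genes, 3 higher and 1 lower call stood when the adjustment covered only genes averaging 1 log2 CPM or more and when fold changes were recentred on the median of abundant genes (-0.04). In the whole table that abundance filter gave 1720 higher and 1098 lower genes. At an adjusted p under 0.01, 1 gene was higher (WUS) and 1 lower (WOX1), since STIP (0.0142) and WOX12 (0.0214) no longer passed. That threshold left 1482 of all 19777 genes higher and 419 lower. By Bonferroni adjustment 0 were higher and 0 lower (WUS 0.161, WOX1 0.0815), where 481 genes of the table were higher and 14 lower. An unadjusted edgeR p under 0.05 was found for 5 of the 7, against 5870 of all 19777 genes. With a minimum log2 fold change of 1, WOX12 (0.96) was lost, where 1562 genes of the table were higher and 74 lower. PRS passed under none of these settings, with 0.061 after the abundance filter and 0.073 after recentring. Genes acting with them, 6 higher and 14 lower, numbered 3 higher and 10 lower at an adjusted p under 0.01. After the abundance filter 5 were higher and 13 lower, and after recentring 6 were higher and 12 lower. By Bonferroni 1 was higher and 0 lower, and with a minimum log2 fold change of 1, 4 were higher and 0 lower. Among these 57 genes, edgeR's unadjusted p was under 0.05 for 24, against 5870 of all 19777 genes. In the whole table recentring gave 2510 higher and 854 lower genes. No paired analysis was possible because the table holds 1 comparison and no values per library, and leaving out each line was not run for that reason. Depth per library is unknown, so the precision that depth gives each gene could not be set out.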
